A study of Mus musculus with 9 samples.

Results

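The genes described here are 10 components of interleukin-6 (IL-6) family signalling: the ligands Il6 and Lif, the receptor chains Il6ra, Il6st, Osmr and Lifr, the related IL-4 receptor chain Il4ra, the kinase gene Jak1, the transcription factor gene Stat3 and the feedback inhibitor gene Socs3. They were picked by gene name, with earlier results of these data known. They make up 10 of the 54532 gene IDs with a value, and all 10 were among the 13245 genes expressed highly enough to be tested. HT22, an immortalized mouse hippocampal cell line of wild-type genotype, was the source of every library. Untreated cells formed the control group. The OGP cells underwent oxygen glucose deprivation (OGD) for 2 h and were then reoxygenated for 24 h with PBS. The OGE cells underwent the same OGD and reoxygenation with extracellular vesicles from mesenchymal stem cells that had been derived from human induced pluripotent stem cells (hiPS-MSC-EVs). Each group held 3 libraries. The design asks how the 10 transcripts stood after OGD and reoxygenation, and whether they stood elsewhere when hiPS-MSC-EVs were given.

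Cytokines of the IL-6 family bind a receptor chain of their own, such as IL-6Rα for IL-6, LIFR for leukemia inhibitory factor (LIF) or OSMR for oncostatin M, and nearly all of them signal through the shared chain gp130, the product of Il6st. Kinases of the JAK family that are attached to these chains then phosphorylate STAT3, which enters the nucleus and activates genes, among them Socs3, whose product binds gp130 and the kinases and shuts the signal off. In the ischemic brain the pathway is known for neuronal survival, the reaction of astrocytes and inflammation. RNA levels, which are all that was measured here, do not show phosphorylation of STAT3.

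Several limits of the samples touch every value. The replicates are called biological in the study's text, but separate cultures are not mentioned, so that a p-value here refers to the spread between libraries. The labels state that standard medium was used after OGD, and the study's methods list media with exosome-free FBS, without FBS or with EVs. A difference in serum between OGP and OGE, or a difference from the medium of the control cells, therefore cannot be told apart from that between the treatments. No EV dose is named for the sequenced cells. Reads assigned to genes numbered 15026700 to 19476806 per library. Control replicate 1 and OGE replicate 3 lay apart from the other libraries of their groups in an earlier analysis. Each fold change was therefore also computed without both, as were the counts of DEGs among the 10 genes, the pathway genes and the STAT3 targets. The ratios, marker sums, ranks, counts by role and counts without overlap given here were not. In bulk RNA, fewer cells of a type and less RNA per cell cannot be told apart. Of 10 neuron markers, only Tubb3 and Map2 reached a mean of 1 FPKM, Gad1 was listed at 0 in all 9 libraries, and 4 of the 10 stayed under 0.1 FPKM in each library. The summed neuron markers ranged over 8.18 to 10.7 FPKM in control, 12.7 to 13.6 in OGP and 13.6 to 17.7 in OGE. Of 8 mesenchymal markers 7 exceeded a mean of 1 FPKM, and their sum was 1327 to 1700 FPKM in control, 1271 to 1365 in OGP and 906.6 to 1068 in OGE. Among the other lists, microglia and leukocyte markers (2 of 8 over 1 FPKM, Tmem119 and Cd68, with Itgam at 0) summed to 15.3 to 20.3, 19.5 to 22.4 and 10.9 to 12.5 FPKM in the same order of groups. Astrocyte markers (1 of 6 over 1 FPKM, Slc1a3, with Aqp4 at 0) summed to 9.35 to 11.1, 4.14 to 5.72 and 2.83 to 3.28 FPKM. No marker of oligodendrocytes (0 of 5, summed level at most 0.906 FPKM) or of endothelium (0 of 5, at most 0.243 FPKM) reached 1 FPKM. The part of these shifts in the results below was not tested.

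After OGD, Socs3 and Il6 fell and Lif rose. Just upstream of their RefSeq starts lie motifs through which STAT, AP-1 and NF-kB factors bind DNA, which is why the sequences below are shown. They come from RefSeq (build GRCm38.p6), in which all 10 genes were matched, and are written 5′ to 3′ on the strand of the gene with the motif in capitals. The Socs3 stretch, 30 bases at chr11:117969501-117969530 on the minus strand, carries a STAT motif (TTCNNNGAA) 146 bases before the RefSeq start. This stretch lies inside the Socs3 gene model (chr11:117966079-117970047), which extends further upstream, so that it precedes that start only. The Il6 window of 250 bases at chr5:30012864-30013113 on the plus strand carries an AP-1 motif (TGANTCA) 243 bases and a kB motif 35 bases before the start. The Lif window of 250 bases at chr11:4257318-4257567 on the plus strand carries an AP-1 motif 222 bases before the start.
Socs3: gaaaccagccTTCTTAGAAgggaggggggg
Il6: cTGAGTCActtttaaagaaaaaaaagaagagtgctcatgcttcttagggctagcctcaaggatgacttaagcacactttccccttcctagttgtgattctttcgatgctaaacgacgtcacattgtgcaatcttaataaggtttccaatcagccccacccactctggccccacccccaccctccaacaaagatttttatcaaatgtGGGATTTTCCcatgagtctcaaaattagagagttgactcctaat
Lif: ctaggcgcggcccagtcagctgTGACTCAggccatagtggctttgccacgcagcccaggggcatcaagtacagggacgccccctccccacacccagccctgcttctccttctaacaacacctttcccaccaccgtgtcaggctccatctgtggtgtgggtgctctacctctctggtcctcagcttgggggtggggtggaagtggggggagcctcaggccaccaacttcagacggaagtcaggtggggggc

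Both strands of the 250 bases before each RefSeq start were searched. The 10 genes had 11 such windows, because Lifr has a further RefSeq start. These starts can differ from the ends of the gene coordinates given below. The windows of Socs3, Osmr and Lifr lie inside those coordinates, and the windows of Il4ra, Jak1 and Lif overlap them in part. The STAT motif occurs in 7.02% of 32851 promoters of this length, the AP-1 motif in 6.75%, the kB motif in 3.9% and the HIF core motif ACGTG in 16.6%. Il6ra held the HIF core motif on both strands, within the letters CACGTG that also form an E-box, 19 to 20 bases before its start. Stat3, Osmr, Il4ra, Il6st, Jak1 and Lifr held none of the 4 motifs in these windows, which says only that the letters were not found there.

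Control cells expressed all 10 genes, and the levels spanned more than an order of magnitude. FPKM are fragments per kilobase of gene, scaled to library depth. Orders, ratios and shares across genes rest on the listed gene lengths, which can differ from those of the transcripts expressed. By FPKM, Socs3 was the highest in control at a mean of 51.7, followed by Il6st at 42.1, and their libraries overlapped. Stat3 (33.7) and Jak1 (32.7) came next and overlapped each other. Osmr (19.4), Il4ra (17.0) and Il6 (14.1) formed a middle group, with overlap between neighbours. Lifr (3.36), Lif (3.14) and Il6ra (2.61) were the lowest, Lifr and Lif overlapping and Il6ra lying below both. After OGD the order was Il6st, Jak1, Socs3, Stat3, Il4ra, Osmr, Lif, Il6, Lifr and Il6ra, and overlap was confined to Il4ra with Osmr, Il6 with Lifr and Lifr with Il6ra among neighbours. In OGE cells Socs3 was again the highest and Lifr the lowest. There Jak1 overlapped Il6st, Il4ra overlapped Osmr, and Il6ra, Lif and Il6 overlapped as neighbours.

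**Figure D1:**
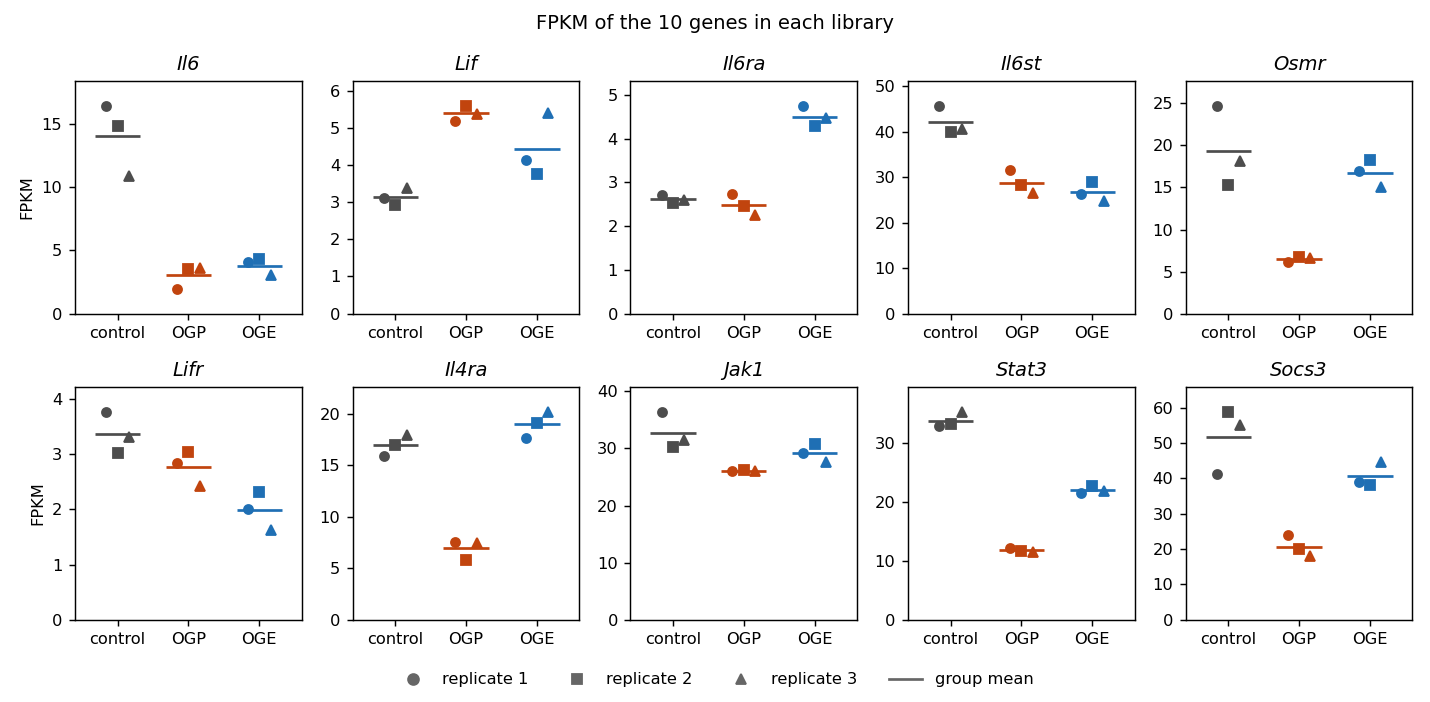
FPKM (y axis, from 0 and scaled for each gene) of the 10 genes in each library, by group (x axis). Symbols are the replicates and lines the group means of 3 libraries. Stat3 lies at 32.8 to 35.2 FPKM in control, at 11.5 to 12.2 in OGP and at 21.6 to 22.7 in OGE, so that its 3 groups do not overlap.

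After OGD and reoxygenation, 5 of the 10 genes fell and 1 rose in OGP against control, where 5.74% of all genes tested fell and 6.38% rose. Il6, Osmr, Stat3, Socs3 and Il4ra fell 2.35- to 4.17-fold, and Lif rose 1.62-fold. With hiPS-MSC-EVs, 5 genes rose against OGP, namely Il4ra, Osmr, Socs3, Stat3 and Il6ra, by 1.68- to 2.62-fold, where 3.39% of all genes rose. Stat3, Osmr, Il4ra and Socs3 were thus lower in OGP than in both other groups, whereas Il6 was low in both OGP and OGE. Differences were called (DEGs) where limma on log2(FPKM + 0.5) gave a fold of 1.5 or more with a Benjamini-Hochberg adjusted p, over the 13245 genes, not above 0.05. Each fold change below is on that log2 scale.

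The 2 ligands moved in opposite directions. Il6 (ENSMUSG00000025746, mm10 chr5:30013114-30019981), a pro-inflammatory cytokine that neurons and glia can release, stood at 16.4, 14.8 and 10.9 FPKM in the control libraries, at 1.935, 3.57 and 3.62 in OGP and at 4.06, 4.33 and 3.03 in OGE. All OGP and OGE libraries lay below all control libraries, and OGP and OGE overlapped. Il6 fell by 2.06 on the log2 scale in OGP (SE 0.229, 4.17-fold lower, limma adjusted p = 3.02e-04). In OGE it was 3.37-fold lower than in control (log2 change -1.75, SE 0.229, adjusted p = 6.56e-04). The difference between OGE and OGP was not called, at a log2 change of 0.31 with a 95% interval of -0.21 to 0.83 (adjusted p = 0.377). Its values rest on 93 to 697 reads per library.

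Lif (ENSMUSG00000034394, mm10 chr11:4257557-4272514), a ligand that signals through LIFR and gp130 and keeps mouse embryonic stem cells undifferentiated, stood at 3.11, 2.93 and 3.38 FPKM in control, at 5.19, 5.59 and 5.38 in OGP and at 4.14, 3.76 and 5.39 in OGE. The OGP libraries all exceeded the control libraries, and OGE replicate 3 stood within the OGP range while the other two OGE libraries lay between the groups. Lif rose by 0.70 on the log2 scale in OGP (SE 0.120, 1.62-fold, adjusted p = 0.00293). OGE did not differ from OGP by the test (log2 change -0.27, adjusted p = 0.147), and at 1.34-fold over control it missed the fold threshold, with an adjusted p of 0.0297. The ratio of Lif to Il6 in FPKM was 0.19, 0.20 and 0.31 in the control libraries, 2.68, 1.56 and 1.49 in OGP and 1.02, 0.87 and 1.78 in OGE. By FPKM, Il6 was thus the higher of the pair in each control library and the lower in each OGP library. An exact two-sided permutation test gave p = 0.1 for OGP against control, the smallest that 3 libraries against 3 allow, and p = 0.3 for OGE against OGP.

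Of the receptor chains, Osmr and Il4ra had the largest changes, both from control to OGP and from OGP to OGE. Osmr (ENSMUSG00000022146, mm10 chr15:6813577-6874969), which encodes the oncostatin M receptor, stood at 24.7, 15.3 and 18.1 FPKM in control, at 6.12, 6.69 and 6.61 in OGP and at 16.9, 18.3 and 15.1 in OGE. The OGP libraries lay below all the others, and the OGE libraries lay within or just under the control range. Osmr fell by 1.49 on the log2 scale in OGP (SE 0.153, 2.80-fold lower, adjusted p = 2.14e-04) and rose by 1.30 in OGE against OGP (SE 0.153, 2.47-fold, adjusted p = 4.73e-04). The difference between OGE and control was not called, at -0.18 with a 95% interval of -0.53 to 0.16 (adjusted p = 0.431), and it had the opposite sign, at 0.003, without control replicate 1. The ligand gene Osm was listed at 0 in all 9 libraries.

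Il4ra (ENSMUSG00000030748, mm10 chr7:125552120-125579474) encodes a chain of the receptors for IL-4 and IL-13, which does not use gp130 and signals mainly through STAT6. It stood at 15.9, 17.0 and 18.0 FPKM in control, at 7.60, 5.83 and 7.49 in OGP and at 17.7, 19.1 and 20.2 in OGE. The groups did not overlap between OGP and the other two, while control and OGE overlapped. Il4ra fell by 1.23 on the log2 scale in OGP (SE 0.108, 2.35-fold lower, adjusted p = 9.17e-05) and rose by 1.39 in OGE against OGP (SE 0.108, 2.62-fold, adjusted p = 4.18e-05). Between OGE and control the difference was not called, at 0.16 with a 95% interval of -0.08 to 0.40 (adjusted p = 0.323).

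Il6ra (ENSMUSG00000027947, mm10 chr3:89864059-89913196), the chain that binds IL-6 itself, was lowly expressed and was called only in the comparisons with OGE. It stood at 2.71, 2.53 and 2.595 FPKM in control, at 2.735, 2.46 and 2.25 in OGP and at 4.75, 4.30 and 4.47 in OGE. Control and OGP overlapped, and all OGE libraries exceeded both. The log2 change of OGP against control was -0.06 with a 95% interval of -0.27 to 0.14 (adjusted p = 0.624). In OGE, Il6ra rose 1.68-fold against OGP (log2 change 0.75, SE 0.0898, adjusted p = 5.38e-04) and 1.61-fold against control (0.68, SE 0.0898, adjusted p = 6.58e-04).

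Il6st (ENSMUSG00000021756, mm10 chr13:112464070-112510086), the gene of gp130, stood at 45.7, 40.02 and 40.7 FPKM in control, at 31.5, 28.3 and 26.6 in OGP and at 26.4, 28.9 and 24.7 in OGE. Every control library exceeded every library of the other groups, which overlapped each other. In OGP the fold of 1.46 was under the threshold (log2 change -0.54, SE 0.0939, adjusted p = 0.00294), and without OGP replicate 1 Il6st was called, at -0.61. In OGE it was 1.57-fold lower than in control (-0.65, SE 0.0939, adjusted p = 0.00114), a call that was lost without both outlying libraries, at -0.54. OGE and OGP differed by -0.11 with a 95% interval of -0.32 to 0.10 (adjusted p = 0.455).

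Lifr (ENSMUSG00000054263, mm10 chr15:7090614-7197489), the receptor chain of LIF, stood at 3.76, 3.01 and 3.31 FPKM in control, at 2.84, 3.04 and 2.41 in OGP and at 2.00, 2.31 and 1.63 in OGE. Control and OGP overlapped, and the OGE libraries lay below both groups. Neither OGP against control (log2 change -0.24, 95% interval -0.54 to 0.06, adjusted p = 0.197) nor OGE against OGP (-0.40, 95% interval -0.70 to -0.10, adjusted p = 0.0606) was called. In OGE, Lifr was 1.56-fold lower than in control (-0.64, SE 0.132, adjusted p = 0.0072). That call was lost without control replicate 1 (-0.57), without OGE replicate 3 (-0.54), without both (-0.47) and with a pseudocount of 1 (-0.55), each time on the fold threshold. Lifr and Osmr lie on chromosome 15 with a gap of 215.6 kb between them, on opposite strands.

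**Figure D2:**
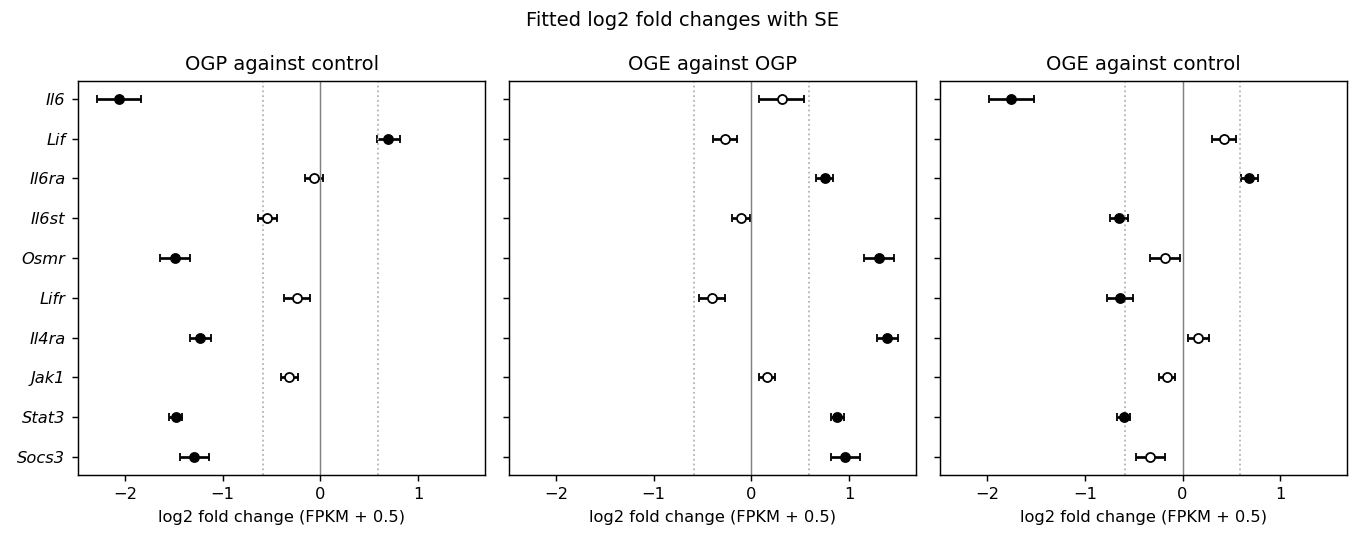
Fitted log2 fold changes of FPKM + 0.5 (x axis) for the 10 genes in the 3 comparisons, with bars of 1 SE. Filled circles passed both thresholds and dotted lines mark a fold of 1.5. Osmr, Il4ra, Stat3 and Socs3 lie at -1.23 to -1.49 in OGP against control and at 0.88 to 1.39 in OGE against OGP.

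The kinase and the transcription factor differed in how far they moved. Jak1 (ENSMUSG00000028530, mm10 chr4:101152367-101265282), a kinase bound to gp130 and to the IL-4 receptor, stood at 36.4, 30.3 and 31.5 FPKM in control, at 26.1, 26.2 and 26.0 in OGP and at 29.2, 30.8 and 27.5 in OGE. The OGP libraries lay below all the others, and control and OGE overlapped. Jak1 was 1.25-fold lower in OGP than in control (log2 change -0.32, SE 0.0835, adjusted p = 0.0197), which is under the fold threshold. Neither OGE against OGP (0.16, 95% interval -0.03 to 0.35, adjusted p = 0.215) nor OGE against control (-0.16, 95% interval -0.35 to 0.03, adjusted p = 0.202) was called.

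Stat3 (ENSMUSG00000004040, mm10 chr11:100885098-100939540) stood at 32.8, 33.2 and 35.2 FPKM in control, at 12.2, 11.6 and 11.5 in OGP and at 21.6, 22.7 and 21.8 in OGE, with 1784 to 6237 reads per library. The 3 groups did not overlap, with OGP the lowest and OGE between OGP and control. Stat3 fell by 1.48 on the log2 scale in OGP (SE 0.0651, 2.79-fold lower, adjusted p = 3.55e-06) and rose by 0.88 in OGE against OGP (SE 0.0651, 1.84-fold, adjusted p = 3.10e-05). In OGE it remained 1.52-fold lower than in control (-0.60, SE 0.0651, adjusted p = 2.14e-04). The last value lies close to the fold threshold and fell under it without control replicate 3 (-0.57), under quantile normalization (-0.54) and with voom on recovered reads (-0.58). The 3′ ends of Stat3 and Stat5a, on opposite strands, overlap by 72 bases, and since strand-specific counting is not stated, reads there cannot be assigned to either. Stat5a stood at 4.53 to 7.31 FPKM in the 9 libraries.

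Socs3 (ENSMUSG00000053113, mm10 chr11:117966079-117970047) is a STAT3 target and an inhibitor of the same receptors, and holds the STAT motif printed above. It stood at 41.2, 58.7 and 55.0 FPKM in control, at 24.1, 20.04 and 18.04 in OGP and at 39.1, 38.0 and 44.8 in OGE. OGP lay below both other groups, and OGE replicate 3 exceeded control replicate 1. Socs3 fell by 1.29 on the log2 scale in OGP (SE 0.149, 2.45-fold lower, adjusted p = 3.75e-04) and rose by 0.96 in OGE against OGP (SE 0.149, 1.95-fold, adjusted p = 0.00243). OGE against control was not called (-0.33, 95% interval -0.67 to 0.01, adjusted p = 0.142). The ratio of Socs3 to Stat3 in FPKM was 1.53 ± 0.259 (SD, n = 3) in control, 1.76 ± 0.21 in OGP and 1.85 ± 0.194 in OGE. These ratios overlapped between all groups (exact two-sided permutation p = 0.4, 0.6 and 0.2 for OGP against control, OGE against OGP and OGE against control). The ratio of Stat3 to Jak1, in contrast, was 1.04 ± 0.118 in control, 0.451 ± 0.0134 in OGP and 0.755 ± 0.0303 in OGE, without overlap between groups (exact permutation p = 0.1 in each comparison).

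Of the receptor chains that join gp130 in its complexes, the 3 among the 10 genes were also compared as shares of their sum. Il11ra1, another such chain, was not included. Its mean was 6.89 FPKM in control, 9.80 in OGP, where it exceeded that of Osmr (6.47), and 5.05 in OGE. These Il11ra1 values are uncertain for the reason given below. Added in FPKM, Osmr, Lifr and Il6ra came to 31.2, 20.9 and 24.0 in the control libraries, 11.7, 12.2 and 11.3 in OGP and 23.7, 24.9 and 21.2 in OGE. The OGP sums lay below all the others, and control and OGE overlapped (exact permutation p = 0.1 for OGP against either group and 0.7 between OGE and control). Osmr made up 76.0% ± 2.95 (SD, n = 3) of the sum in control, 55.3% ± 3.18 in OGP and 72.1% ± 1.21 in OGE. Lifr made up 13.4% ± 1.23, 23.5% ± 1.89 and 8.47% ± 0.798 in the same order. Il6ra made up 10.54% ± 1.73, 21.2% ± 1.92 and 19.5% ± 1.97. Osmr had the highest FPKM of the 3 in each library, and its share was lower in each OGP library than in any other. The Il6ra share was higher in OGP and OGE than in each control library, whereas OGP and OGE overlapped. Il6st in FPKM was 1.69 ± 0.226 times the sum in control, 2.46 ± 0.206 times in OGP and 1.15 ± 0.0299 times in OGE. The groups did not overlap (exact permutation p = 0.1 in each comparison). A ratio with Il11ra1 in the sum was not computed, so the separation is shown for these 3 chains only.

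**Figure D3:**
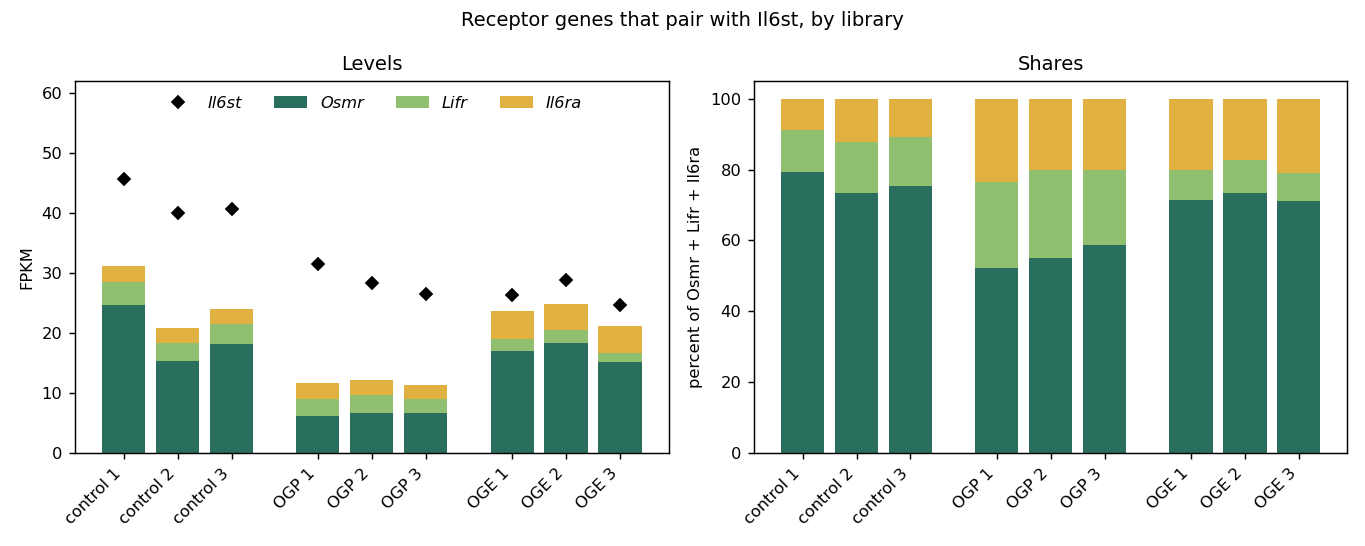
Stacked bars show Osmr, Lifr and Il6ra in each library, on the left as FPKM with Il6st as diamonds and on the right as percent of their sum. Osmr takes 52.3 to 58.6% in OGP and 71.2 to 79.2% in the control and OGE libraries.

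The median log2 change of the 10 genes in OGP against control was -0.89, beside 0.01 over all genes, and for 8 of the 10 the libraries of the groups did not overlap (42.9% of all genes tested). In OGE against OGP, 0 of the 10 were lower by limma, and 0 with voom, where 4.73% of all genes were. Lifr was the 1 gene lower there at an unadjusted limma p under 0.05, at 0.0138. The median was 0.53, beside 0.00 over all genes, and 7 of the 10 did not overlap (45.4% of all genes). In OGE against control, 1 of the 10 was higher (5.14% of all genes) and 4 were lower (6.33%), with a median of -0.26 beside 0.00 over all genes, and 6 did not overlap (38.2% of all genes). Each pair of comparisons shares a group of libraries, so that a low value in OGP enters both OGP against control and OGE against OGP, with opposite signs. Mitochondrial transcripts, which took 1.10 to 2.31% of reads in control, took 2.45 to 3.25% in OGP and 2.03 to 2.90% in OGE, and their part in these changes was not tested.

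Beyond the 10 genes, a list of 44 other ligands, receptors, kinases, STATs and inhibitors of the IL-6 family and of JAK-STAT signalling was measured, of which 28 were tested and 16 lay under the limit of 0.5 FPKM. In OGP, 4 of the 28 fell against control (Socs2, Stat5b, Il13ra1 and Ptpn1) and 0 rose, where 5.74% of all genes tested fell and 6.38% rose, with a median log2 change of -0.19. By limma 3 of the 28 were higher at an unadjusted p under 0.05, and with voom 1 was called. In OGE against OGP, Clcf1 and Il13ra1 rose and Il11ra1, Stat2 and Ctf1 fell, where 3.39% of all genes rose and 4.73% fell, with a median of 0.03. In OGE against control 4 fell (Stat2, Stat5b, Socs2 and Ptpn1) and 0 rose, where 6.33% of all genes fell and 5.14% rose, with a median of -0.13. By limma 2 were higher there at an unadjusted p under 0.05, and 1 was called without control replicate 1, without OGE replicate 2 or with voom.

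Of 11 listed ligand genes 3 were tested. Clcf1, which encodes cardiotrophin-like cytokine, went from 7.06 ± 0.806 FPKM in OGP to 13.0 ± 2.86 in OGE (log2 change 0.82, adjusted p = 0.00515). Ctf1, which encodes cardiotrophin-1, another ligand of LIFR and gp130, went the other way, from 6.40 ± 0.793 FPKM to 3.87 ± 0.0509 (-0.65, adjusted p = 0.00507).

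Of 10 listed receptor genes and sheddases, 4 were tested. Il13ra1, which joins Il4ra in the receptor for IL-13 on non-hematopoietic cells, stood at 96.8, 67.3 and 76.1 FPKM in control, at 29.0, 34.6 and 31.0 in OGP and at 55.6, 62.4 and 48.3 in OGE. The 3 groups did not overlap, and OGP was the lowest, as for Il4ra. Il13ra1 fell by 1.32 on the log2 scale in OGP (SE 0.144, adjusted p = 2.76e-04) and rose by 0.80 in OGE against OGP (SE 0.144, adjusted p = 0.00517). Il11ra1, the receptor chain of IL-11, fell by 0.89 in OGE against OGP (SE 0.08, adjusted p = 9.12e-05), from 9.80 ± 0.261 to 5.05 ± 0.119 FPKM, and since the files also hold a near-identical copy, Il11ra2, and sharing of reads was not tested, its value is uncertain.

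Among the 8 other listed kinases and STATs, of which 7 were tested, the genes called in any comparison were Stat2 and Stat5b. Stat2, a mediator of the response to type I interferon, stood at 50.2, 38.8 and 42.1 FPKM in control, at 35.7, 33.7 and 35.2 in OGP and at 19.3, 17.4 and 16.7 in OGE. The 3 groups did not overlap, and OGE was the lowest. Stat2 fell by 0.95 on the log2 scale in OGE against OGP (SE 0.102, adjusted p = 2.59e-04). Stat5b was lower in both OGD groups, at 13.98 ± 0.80 FPKM in control, 8.52 ± 0.387 in OGP and 7.76 ± 0.277 in OGE. It fell by 0.68 in OGP (adjusted p = 2.61e-04) and by 0.81 in OGE (adjusted p = 7.89e-05), both against control. Stat5a, Stat5b and Stat3 lie side by side on chromosome 11, with 8.626 kb between Stat5a and Stat5b.

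Of the 15 phosphatases and inhibitors 14 were tested, and 0 were called in OGE against OGP by limma or with voom, where 3.39% of all genes were higher and 4.73% lower, so that 0 of 14 lies near the background. At an unadjusted limma p under 0.05, 1 was higher and 1 lower. Socs2, an inhibitor that acts mainly on growth hormone receptor signalling through STAT5, stood at 2.18 ± 0.05 FPKM in control, 0.855 ± 0.0584 in OGP and 1.02 ± 0.0749 in OGE. It was lower than control in OGP (log2 change -0.98, adjusted p = 2.59e-04) and in OGE (-0.82, adjusted p = 5.96e-04). Ptpn1, a tyrosine phosphatase that dephosphorylates JAK kinases, fell by 0.80 in OGP (adjusted p = 5.48e-04) and by 0.65 in OGE against control (adjusted p = 0.00162), the latter a call lost without control replicate 3 (-0.57).

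**Figure D4:**
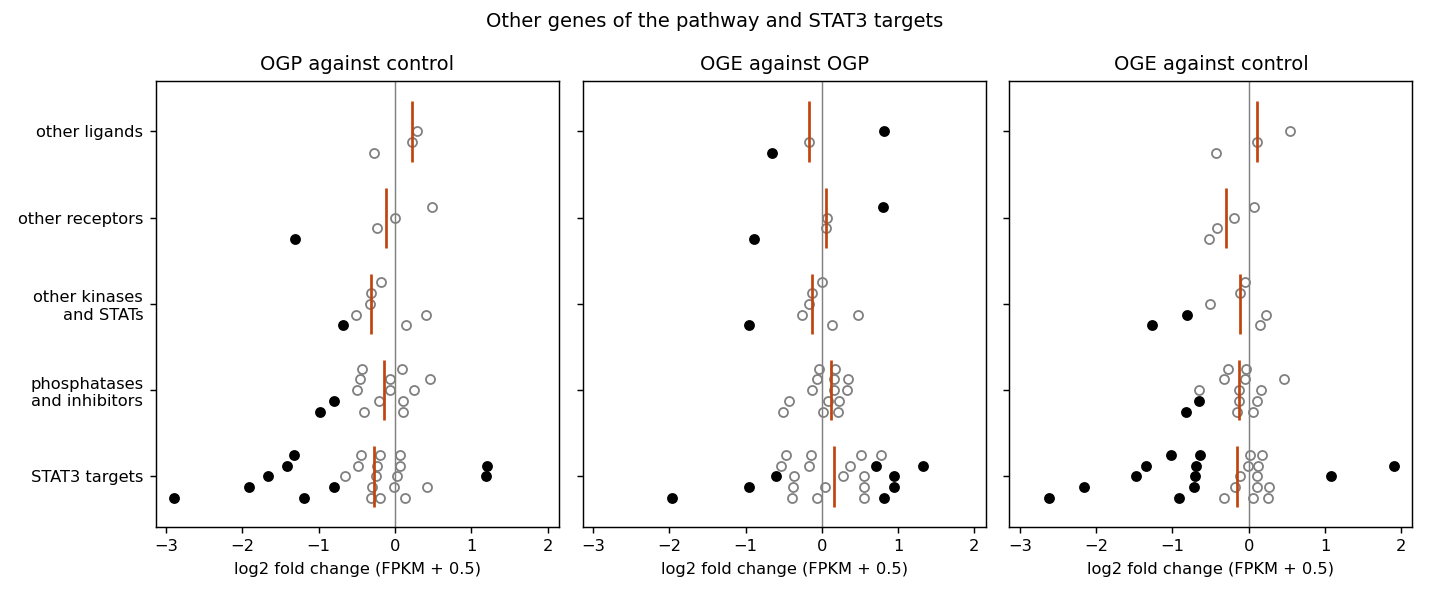
Log2 fold changes of FPKM + 0.5 (x axis) for the other tested genes of the pathway, by role, and for 24 STAT3 targets, in the 3 comparisons. Filled circles are DEGs and vertical bars the medians. The STAT3 targets range from -2.90 (Lcn2) to 1.21 (Ccnd1) in OGP against control.

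A list of 29 genes that STAT3 is known to activate in various cells was also counted, of which 24 were tested and 5 lay under the limit. In OGP against control 7 fell and 2 rose (5.74% and 6.38% of all genes tested), with a median log2 change of -0.28, beside 0.01 over all genes. In OGE against OGP 5 rose and 3 fell (3.39% and 4.73% of all genes), with a median of 0.16. In OGE against control 2 rose and 10 fell (5.14% and 6.33% of all genes), with a median of -0.15. The 5 that rose in OGE against OGP became 3 without OGE replicate 2, and 9 without the outlying control and OGE libraries. Many of these genes also answer to other factors, such as NF-kB, C/EBP and HIF-1.

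Lcn2, Lbp and Serpina3n were among the STAT3 targets that fell in OGP, and all 3 were lower in OGE than in control too. Lcn2, which encodes the iron-binding protein lipocalin-2, stood at 30.2, 20.4 and 24.0 FPKM in control, at 2.599, 2.79 and 3.23 in OGP and at 3.996, 4.21 and 2.68 in OGE. OGP and OGE overlapped, far below control. Lcn2 fell by 2.90 on the log2 scale in OGP (SE 0.179, adjusted p = 1.67e-05) and by 2.62 in OGE (SE 0.179, adjusted p = 1.41e-05), both against control. Lbp, the lipopolysaccharide binding protein, likewise fell in OGP by 1.41 (adjusted p = 4.67e-05) and in OGE by 1.47 (adjusted p = 1.97e-05) against control, and Serpina3n, a serine protease inhibitor, fell in OGP by 1.91 (adjusted p = 9.02e-05) and in OGE by 1.35 (adjusted p = 4.60e-04). The OGP level of Serpina3n, 0.348 ± 0.0957 FPKM, was under the pseudocount.

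Timp1, an inhibitor of matrix metalloproteinases, was low in OGP alone, as Osmr was. It stood at 206.4, 277.6 and 267.7 FPKM in control, at 93.3, 100.8 and 101.9 in OGP and at 252.2, 247.3 and 244.1 in OGE. Timp1 fell by 1.33 on the log2 scale in OGP (SE 0.112, adjusted p = 7.82e-05) and rose by 1.33 in OGE against OGP (SE 0.112, adjusted p = 6.62e-05). Vegfa, the vascular growth factor gene, was higher in OGE alone. It stood at 11.96, 11.46 and 11.91 FPKM in control, at 13.9, 12.4 and 12.7 in OGP and at 24.2, 23.6 and 28.7 in OGE, a rise of 0.94 against OGP (SE 0.0888, adjusted p = 1.25e-04) and of 1.08 against control (adjusted p = 4.40e-05).

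Zfp36 and Ccnd1 fell in OGE against OGP while Stat3 rose. Zfp36, whose product tristetraprolin promotes the decay of cytokine mRNAs, went from 29.7 ± 1.79 FPKM in OGP to 7.31 ± 1.28 in OGE (log2 change -1.96, SE 0.161, adjusted p = 5.52e-05), and was 34.7 ± 7.60 in control. Ccnd1, which encodes cyclin D1, stood at 9.98 ± 0.317 FPKM in control, 23.8 ± 2.85 in OGP and 12.2 ± 2.65 in OGE. From OGP to OGE it fell by 0.95 on the log2 scale (SE 0.146, adjusted p = 0.00231).

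The genes whose pattern was most like that of Stat3 were ranked by the root mean square difference between log2(FPKM + 0.5) values centred on each gene's mean over the 9 libraries. Ptch1, the Hedgehog receptor, was the nearest at 0.0739, with means of 6.57 FPKM in control, 2.14 in OGP and 4.58 in OGE. It was followed by Adamts4 (0.0999), Foxf2 (0.111), Sdc1 (0.132) and Col6a3 (0.138). Among the 10 genes described here, Socs3 was the nearest to Stat3, at rank 22 of all genes tested and a difference of 0.195, followed by Osmr at rank 84 and Il4ra at rank 198. Lif was the farthest, at rank 11919 and 0.899. The genes nearest to Osmr were Gja1 (0.19), the gene of connexin 43, then Pxylp1 (0.208), Il13ra1 (0.217), Tmeff1 (0.219) and Lox (0.231). Stat3 was at rank 14 and Il4ra at rank 17 from Osmr. The 9 libraries carry 3 conditions only, so that any gene with changes of like direction and size comes near to these. A small change does not, since Jak1, whose OGP libraries were its lowest, was at rank 1698 from Stat3.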

How the data were processed

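Per the labels and the study's methods, poly-A mRNA of 9 HT22 libraries was sequenced in paired ends, aligned with HISAT2 2.0.5 to mm10 and counted per gene with featureCounts. RNA extraction is given as TRIZOL in the methods and as an RNeasy kit in the labels. The values deposited by the authors are FPKM, and the tool that made them was not given in the sources used here. FPKM are not counts, so the authors' count test, DESeq2, was not run. FPKM times gene length gave whole reads in 100% of values, to within 0.1, and depth was taken from these.

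A mean of 0.5 FPKM over all libraries was the lower limit for testing. One linear model of the 3 groups was fitted to log2(FPKM + 0.5) in limma (version 3.58.1, R 4.3.3), and its prior variance followed the mean level. DEGs had a fold of at least 1.5 and an adjusted p of at most 0.05 (Benjamini-Hochberg). Single ratios were compared by exact two-sided permutation tests (scipy 1.17.1), which cannot reach 0.05 with 3 libraries against 3. The test was tried on simulated data with planted changes above the 1.5-fold threshold, so changes near it were not examined there.

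The 10 genes and all gene lists were chosen with earlier results of these data known. All 10 are reported, and 2 genes of the pathway list are not reported here and were left out of its counts. Other genes are named as all DEGs of the pathway list, and as up to 4 STAT3 target DEGs with the smallest p per comparison. The 5 genes nearest to Stat3 and to Osmr are also named. Values after ± are SD, whereas each SE belongs to a fitted log2 change. Alternatives were other pseudocounts, filters, fold thresholds, scalings, robust variances, 6 libraries at a time, a replicate block, voom, and leaving out libraries. Of the 10 gene models, 4 overlap another gene, and apart from Stat5a none of these exceeded 0.551 FPKM.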

Additional observations from a re-analysis of the deposited data

How the results depend on the processing

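Over 22 alternatives, the 30 differences of the 10 genes gave 660 values, of which 638 kept their direction and their side of the thresholds, 16 lost a call, 4 gained a call and 2 changed sign. The sign changed for the uncalled difference of Osmr between OGE and control, from -0.18 to 0.074 without both outlying libraries, and over single libraries left out it ranged from -0.333 to 0.003, the last without control replicate 1. With a fold threshold of 2, OGP against control kept 0 of the 10 genes as higher (1 at 1.5), OGE against OGP kept 2 (5 at 1.5), and OGE against control kept 0 as higher (1 at 1.5) and 1 as lower (4 at 1.5). Without both outlying libraries the last count was 2, and with no fold threshold 2 were higher in OGE against control.

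For the 44 pathway genes, no fold threshold gave 3 higher and 10 lower in OGP against control and 2 higher and 9 lower in OGE against control. A fold of 2 gave 1 lower in OGP against control, 0 higher and 0 lower in OGE against OGP (2 and 3 at 1.5), and 1 lower in OGE against control. With voom 1 was higher when OGP was compared with control and 1 when OGE was. In the latter, leaving out both outlying libraries also gave 1, and leaving out single libraries gave 0 to 1. For STAT3 targets, those higher in OGE against OGP numbered 8 with a pseudocount of 0.1, 8 under quantile normalization, 10 with voom, 9 without both outlying libraries, 10 with no fold threshold, 1 at a fold of 2, and 3 to 7 with single libraries left out. Those lower there numbered 6 with no fold threshold and 1 at a fold of 2, and those lower in OGE against control numbered 5 at a fold of 2. The cause was not tested, except that a threshold on fold sets these counts by construction. The called differences of other named genes gave 572 values, of which 558 kept their call.

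Deviations of libraries with the same replicate number correlated at -0.177 to 0.319, so the numbers were not taken to pair the samples. With the replicate block, the calls over all genes were 1581, 1043 and 1484, beside 1605, 1075 and 1519 without it (OGP against control, OGE against OGP and OGE against control), and no call of the 10 genes changed, Stat3 in OGE against OGP staying at 0.88. Quantile normalization and median scaling moved the median of all genes by at most 0.0193 on the log2 scale, and voom by at most 0.032. Jak1 and Il6st in OGP against control were left uncalled by the fold threshold and not by depth, whereas the named DEG with the fewest reads, Serpina3n, rests on 8 to 110 reads per library.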
